A study of Mus musculus with 568 samples.

Results

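The cells described here were 51 of the 462 single cells of reconstituted mouse ovaries (rOvaries) that passed the limits on quality, and they were chosen because their level of *Sycp3*, which encodes a protein of the meiotic chromosome axis, reached 400 RPM, reads of the gene per 1000000 reads of the well. To pass, a well needed 4000 or more genes with a read and 10000 or more reads, of which mitochondrial reads could make up no more than 5%. The series held 552 single-cell wells in all. The other 411 rOvary wells that passed the limits served for comparison. Since *Sycp3* chose the members, its own level is a description, and so is every difference between these wells and the others, because genes that vary together with *Sycp3* had to follow the choice.

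In the fetal ovary, germ cells leave the mitotic cycle and enter the prophase of meiosis, in which homologous chromosomes pair, are held together and exchange DNA. Retinoic acid and BMP signals induce STRA8, which acts with its partner MEIOSIN (*Gm4969* in the count table) to switch on many meiotic genes. SYCP2, SYCP3, HORMAD1 and the cohesins build an axis along each chromosome, SYCP1 joins the axes of paired chromosomes as the transverse filament of the synaptonemal complex, PRDM9 marks the places where SPO11 cuts DNA, and DMC1 with its helpers repairs the cuts on the homologue. Female germ cells also reactivate their inactive X chromosome in this period, so the state of the X was read in the same wells.

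All cells came from the XRep line, a female hybrid embryonic stem cell line with 1 X chromosome from 129S1/SvImJ (Xmus) and 1 from CAST/EiJ (Xcas). A truncation of *Tsix* on Xmus makes that chromosome the one that is inactivated, a GFP reporter in *Hprt* sits on Xmus and a tdTomato reporter on Xcas, and the line carries a reverse tetracycline transactivator in *Rosa26* and doxycycline-inducible transgenes for *Blimp1*, *Tfap2c* and *Prdm14*, which drive the cells to primordial germ cell-like cells (PGCLCs). PGCLCs of day 5 that were positive for SSEA1 and CD61 were sorted as XGFP- or XGFP+, aggregated with somatic cells of female E13.5 gonads, and cultured for 6 days, after which single XTomato+ cells were sorted. XGFPhigh, XGFPintermediate and XGFPlow cells came from rOvaries made with XGFP- PGCLCs, and XGFP+ constitutive cells came from rOvaries made with XGFP+ PGCLCs. All groups share the one cell line and its transgenes. Each sorted population is 1 sample, and the labels do not tie wells to separate rOvaries or aggregations, so no test between populations or classes could be made and no p-value is given anywhere. Intervals are exact 95% intervals on numbers of wells and cover counting error only, since each population is 1 sample. The reads carry no molecular identifiers.

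Depth did not separate the classes. The members held 196230 to 1173457 reads per well with a median of 598671, and the median of the other wells was 599630. The 10 empty wells held a median of 0.5 reads and no read of *Sycp3*. No pair of wells that passed the limits had identical counts. Wells of XGFPhigh, XGFPintermediate and XGFPlow were sequenced in lanes 2 and 3, and XGFP+ constitutive wells in lane 2 only, so that population can be set beside the others within lane 2 alone.

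High-*Sycp3* wells were most frequent in the XGFPintermediate population. There were 33 of them, beside 95 other wells, so they made up 25.8% of the XGFPintermediate wells that passed (95% interval, 18.5 to 34.3). XGFPlow held 10, or 8.26% of its wells (4.03 to 14.7), and XGFPhigh 7 of 125 wells, or 5.60% (2.28 to 11.2). Only 1 of 88 XGFP+ constitutive wells qualified, or 1.14% (0.0288 to 6.17). The interval of XGFPintermediate lay above those of the other populations, while those of XGFPlow, XGFPhigh and XGFP+ constitutive overlapped. Of the 51 members, 47 were sequenced in lane 3. Within lane 3 the share was 29.5% of the XGFPintermediate wells (21.2 to 38.8), 7.55% of the XGFPlow wells (3.31 to 14.3) and 5.41% of the XGFPhigh wells (2.01 to 11.4). In lane 2 it was 0 of 16 XGFPintermediate wells, which allows a share of up to 20.6%, 2 of 15 XGFPlow wells and 1 of 14 XGFPhigh wells. Together the wells from XGFP- PGCLCs in lane 2 held 3 members of 45 (6.67%, 1.40 to 18.3), against the 1 of 88 from XGFP+ PGCLCs, and these intervals overlapped.

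The *Sycp3* level ran without a gap across the limit. Members held 418 to 7251 RPM, with a median of 3049 RPM in XGFPhigh, 1053 RPM in XGFPintermediate and 807 RPM in XGFPlow. The nearest wells inside the limit had 418, 423 and 432 RPM, and the nearest outside had 397, 335 and 301 RPM. Of the 462 wells, 398 lay below 200 RPM, 13 between 200 and 400, 16 between 400 and 800, and 35 at 800 RPM or above, so the members are a range of *Sycp3* levels and not a separate cluster.

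**Figure D1:**
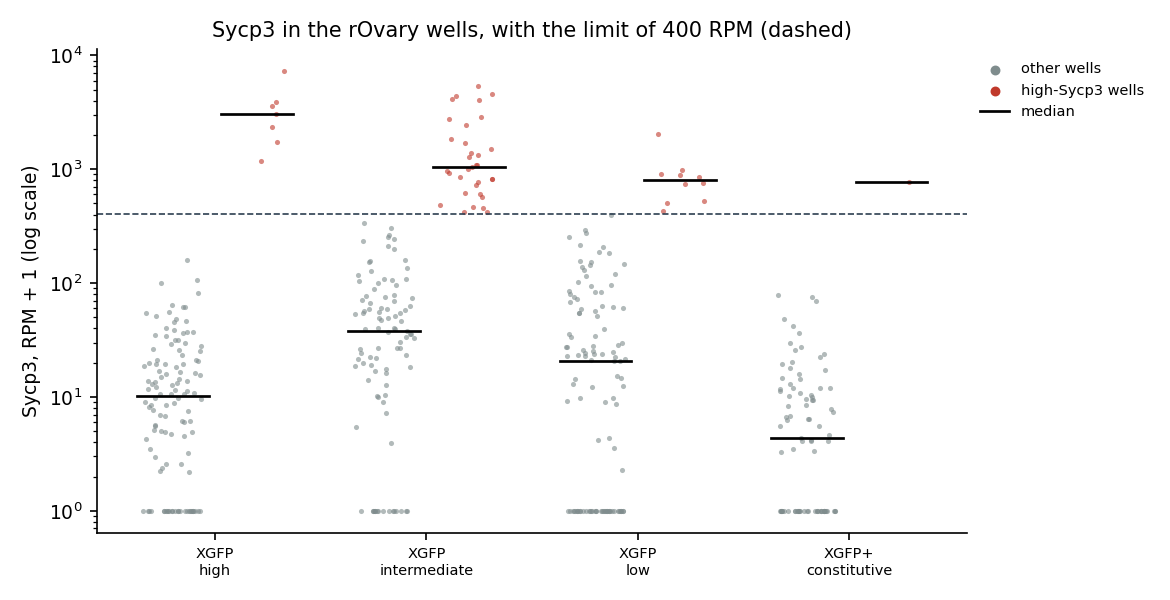
*Sycp3* level of each rOvary well (RPM + 1, log scale) by sorted population, with grey points for other wells, red points for high-*Sycp3* wells, black lines for medians and a dashed line at 400 RPM. XGFPintermediate holds 33 of the 51 wells above the line and XGFP+ constitutive holds 1.

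The members were also described by 5 further meiotic markers that the rule did not use directly. Genes that vary with *Sycp3* had to follow the choice, so these markers are no independent check of the meiotic label. Of the 51 members, 40 held reads of all 5, *Sycp1*, *Prdm9*, *Rad51ap2*, *Ccnb3* and *Gm4969*, against 3 of the 411 other wells. Most members thus held reads of all 5, but 3 members, all of XGFPlow, had reads of at most 2 of the 5. These 3 had *Sycp1* at 702, 192 and 642 RPM, *Stra8* at 5834, 5823 and 1436 RPM, and no read of *Prdm9*, *Rad51ap2* or *Ccnb3*. Of the 3 other wells with all 5 markers, 2 were XGFP+ constitutive wells with *Sycp3* at 78.1 and 67.9 RPM, *Sycp1* at 1553 and 1993 RPM and no read of *Dppa3*, a gene of earlier germ cells, and the other was an XGFPlow well with *Sycp3* at 187 RPM. Wells that resemble the members in these genes thus also lay below the limit.

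*Sycp1* (chr3:102818499-102936100, mm10), the transverse filament gene, had reads in 51 of 51 members. In XGFPhigh the 7 members held 1578 to 5301 RPM with a median of 2677, in XGFPintermediate the 33 members held 112.6 to 5271 RPM with a median of 1582, and in XGFPlow the 10 members held 192 to 1344 RPM with a median of 672. The medians of the other wells were 3.98, 28.8 and 0 RPM in the same order. In XGFPhigh all 7 members lay above the highest other well, at 1262 RPM, whereas in XGFPintermediate and XGFPlow the classes overlapped, since single other wells reached 1414 and 1881 RPM.

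*Prdm9* (chr17:15543079-15564354), whose product marks the sites of meiotic recombination, had reads in 46 of 51 members and in 94 of 411 other wells. Its median was 280 RPM in XGFPhigh, 231 RPM in XGFPintermediate and 87.3 RPM in XGFPlow members, and 0 RPM in the other wells of each. The highest other well held 86.1 RPM, below the median of the members in each of the 3 populations. *Rad51ap2* (chr12:11456079-11462928), a gene of meiotic recombination, separated the members from each other: it had a median of 1415 RPM in XGFPhigh, 240 RPM in XGFPintermediate and 0 RPM in XGFPlow, where 4 of 10 members held reads and the highest reached 137.1 RPM. It had reads in 12 of 411 other wells, at 61.8 RPM or less.

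*Ccnb3* (chrX:6979652-7041619), an X-linked meiotic cyclin, followed the same order with medians of 1847, 344 and 26.5 RPM, and had reads in 45 of 51 members and 36 of 411 other wells. *Gm4969* (chr7:19099046-19118368) had medians of 431, 249.3 and 153 RPM and reads in 47 members and 65 other wells. For both genes 1 other well reached the median over all members. After each well was thinned to 10000 reads, so that all had the same depth, *Rad51ap2* kept a read in 36 of 51 members (70.6%, 56.2 to 82.5) and 1 of 411 other wells (0.243%, 0.00616 to 1.35), and *Prdm9* in 37 of 51 (72.5%, 58.3 to 84.1) and 17 of 411 (4.14%, 2.43 to 6.54).

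*Stra8* did not mark the members. In XGFPintermediate the 33 members held 0 to 11730 RPM with a median of 3160 RPM, against 2539 RPM in the other wells, and in XGFPlow 1436 to 12271 RPM with a median of 5444 RPM, against 1998 RPM. In XGFPhigh the members' median was 731 RPM and that of the other wells 370 RPM. The classes overlapped in all 3 populations, and the members' *Stra8* order, highest in XGFPlow and lowest in XGFPhigh, was the reverse of their *Sycp3*, *Sycp1* and *Rad51ap2* order. The meiotic cohesin gene *Rec8* had members' medians of 0, 14.1 and 73.4 RPM in XGFPhigh, XGFPintermediate and XGFPlow. The germ cell gene *Dazl*, which codes for an RNA-binding protein, had reads in all 51 members, from 2033 to 14866 RPM.

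*Dppa3* (Stella), a marker of primordial germ cells, was at 0 RPM in all 7 XGFPhigh members and had reads in 7 of 33 XGFPintermediate members and 5 of 10 XGFPlow members. The medians of the other wells were 1081, 662 and 524 RPM. *Nanog*, a pluripotency gene, had reads in 4 of 51 members, at 7.26 RPM or less, and in 272 of 411 other wells, where the highest reached 1305 RPM. Members with *Dppa3* reads included an XGFPlow well at 961 RPM, which was also one of the 3 members with few meiotic markers.

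**Figure D2:**
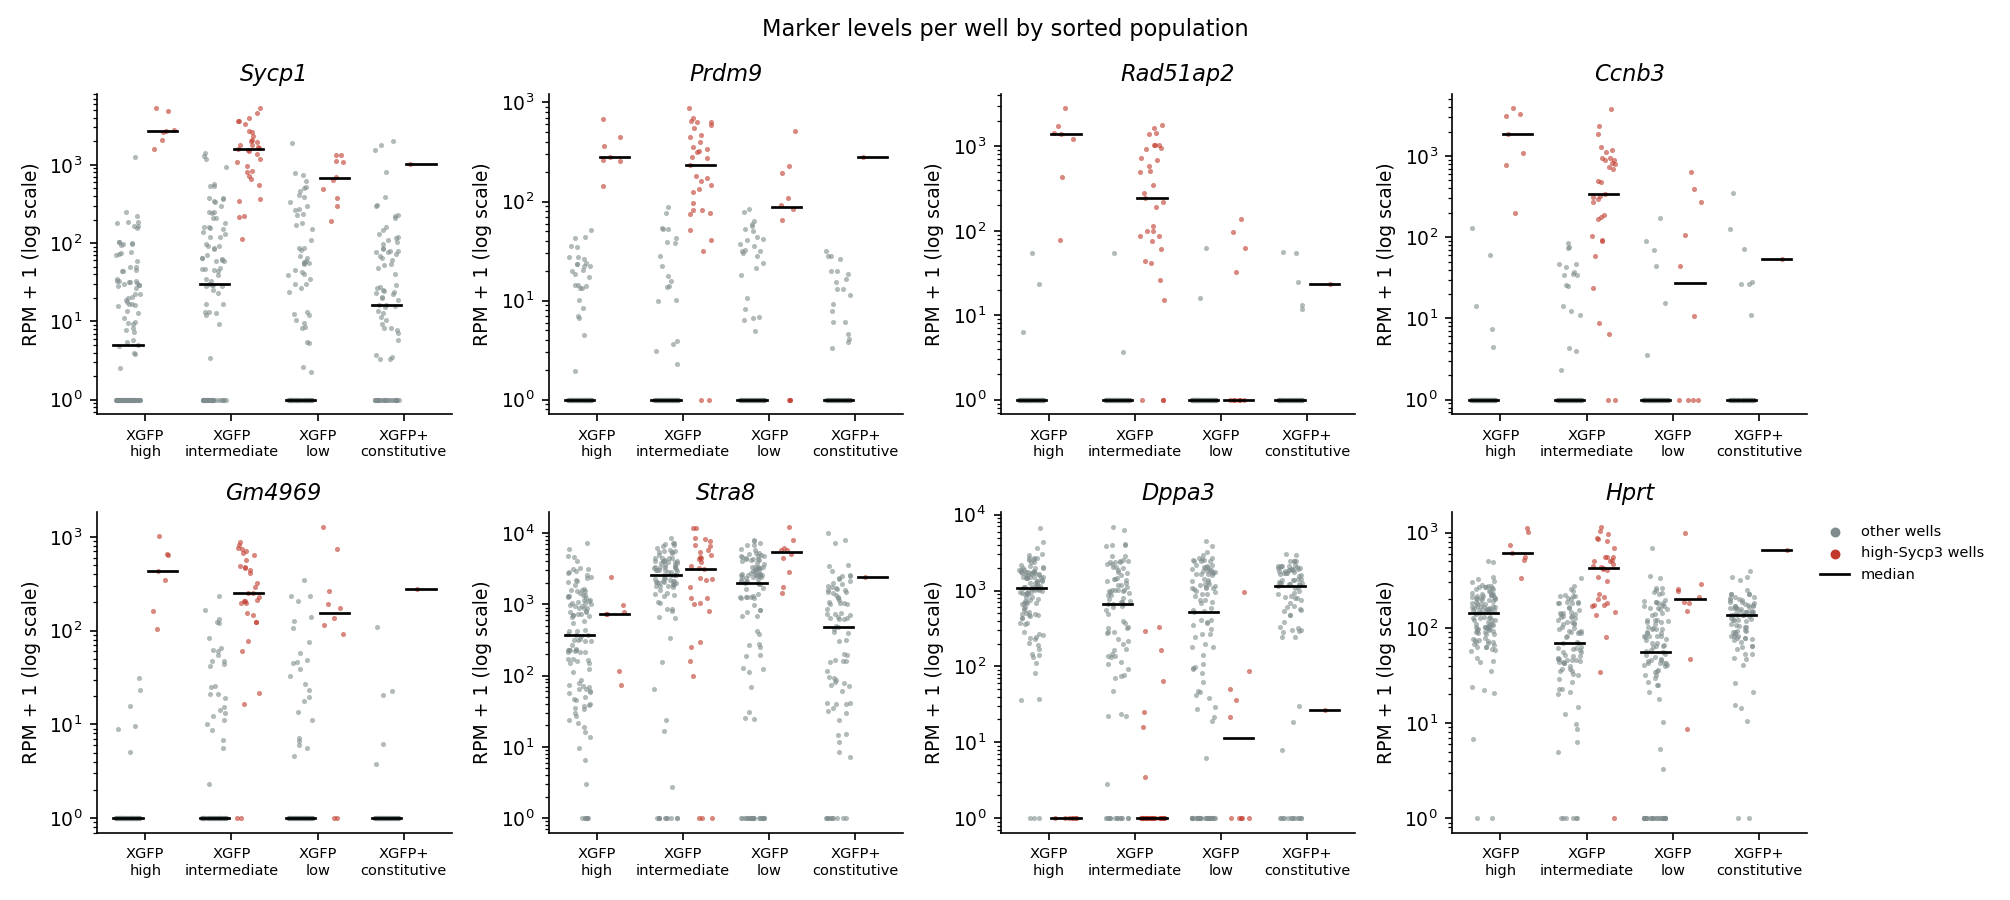
Levels of 8 genes in each rOvary well (RPM + 1, log scale) by sorted population, with grey points for other wells, red points for high-*Sycp3* wells and black lines for medians. *Sycp1*, *Prdm9*, *Rad51ap2*, *Ccnb3* and *Gm4969* lie higher and *Dppa3* lower in the red points, while *Stra8* overlaps in every population.

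For a comparison over all genes, reads were summed over the members and over the other wells within XGFPintermediate and within XGFPlow, the only populations with at least 10 wells in each class. The difference of a gene was the mean over both populations of log2(RPM + 1) in members minus other wells, and a gene was counted as higher or lower when this mean was at least 1 in size with the same sign in both. The added 1 RPM understates differences of genes with few reads. Of 10225 genes with a mean of at least 5 RPM, 1234 (12.1%) were higher and 2179 (21.3%) lower in the members, and the median difference was -0.17. Because the other wells included wells with few germ cell reads and wells with many somatic reads, the comparison was repeated against the other wells with *Ddx4*, a germ cell helicase gene, at 100 RPM or more, which numbered 61 in XGFPintermediate and 53 in XGFPlow. There 1115 of 9772 genes (11.4%) were higher and 1688 (17.3%) lower, with a median of -0.12. Of the first set, 995 of 1234 higher and 1507 of 2179 lower genes were called again. In XGFPhigh, whose 7 members did not enter the comparison, 1164 of the 1234 higher genes and 1989 of the 2179 lower genes differed in the same direction, although those members too had been chosen by *Sycp3*.

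The 12 largest increases were those of *Rad51ap2* (6.16 on the log2 scale), *Ccnb3* (5.58), *BC051142* (5.37), *Pparg* (4.98), *Rad21l* (4.94), *Sycp2* (4.85), *Tex16* (4.78), *Tchh* (4.67), *Taf7l* (4.66), *Prdm9* (4.60), *Tc2n* (4.60) and *Tex15* (4.55). Against the wells with *Ddx4* the same 12 genes stayed past the fold. *Rad21l* codes for a meiotic cohesin subunit, *Sycp2* for an axis protein and *Tex15* for a germ cell protein needed for meiotic recombination and transposon silencing. *Taf7l*, a germ cell relative of a general transcription factor subunit, *Ccnb3* and *Tex16* are X-linked. *Pparg*, a nuclear receptor best known from fat cells, had reads in 42 of 51 members with a median of 135.8 RPM, and in 26 of 411 other wells. *Tchh*, a gene of hair follicles, had reads in 31 of 51 members, at a median of 21.4 RPM and up to 804 RPM.

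The 12 largest decreases depended in part on which other wells were used. *Vim*, *Dcn*, *Col3a1*, *Col1a2*, *Ptn*, *Gap43* and *Lum*, genes known from mesenchymal, stromal and other non-germ cells, were not counted against the wells with *Ddx4*, because there their mean was under the limit of 5 RPM. *Vim*, the gene of the intermediate filament vimentin, still differed by -2.92 in that comparison, and *Col3a1* and *Col1a2* had no read in any member and reads in 1 and 6 of those wells. *Dcn*, which codes for the matrix proteoglycan decorin, had reads in 12 of 411 other wells with a highest value of 13907 RPM, in none of the wells with *Ddx4*, and in 0 members. Summed over 19 genes of somatic gonad cells, the members held 0 to 184 RPM with a median of 0, and the other wells 0 to 31653 RPM with a median of 69.6, of which 15 wells lay at 1000 RPM or above. None of the wells with *Ddx4* reached 1000 RPM. All 19 of these markers had a median of 0 RPM over the members, and 18 of them had it over the other wells too. The other 5 decreases held against the wells with *Ddx4*: *Lefty2* (-6.64, and -6.21 against the wells with *Ddx4*) and *Lefty1* (-5.50 and -5.21), inhibitors of Nodal signalling, *Calcoco2* (-5.49 and -4.71), an autophagy receptor gene, and *Sparc* (-6.21 and -2.22), a matrix protein gene. The fifth was *Cyr61*, a secreted matrix-associated factor, with no read in any member, 81.6 RPM over the other wells and 19.6 RPM over the wells with *Ddx4*, which is at least 860-fold and at least 207-fold lower when 3 reads over all members are taken as the floor. *Lefty2* had reads in 1 of 51 members and in 246 of 411 other wells. The values below are given against all other wells first and against the wells with *Ddx4* second, and counts of lists are to be read beside 12.1% and 21.3% of all genes in the first and 11.4% and 17.3% in the second comparison.

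Genes of the chromosome axis and synaptonemal complex were higher nearly throughout. Of 14 measured genes, 13 were higher and 0 lower, with a median difference of 2.87, and against the wells with *Ddx4* again 13 were higher, with a median of 2.39. The list contains *Sycp3* itself. *Rad21l* and *Sycp2* led, and *Tex12*, a gene of the central element of the synaptonemal complex, had a difference of 3.55 and reads in 51 of 51 members at a median of 619 RPM, against 1.98 RPM in the other wells. *Hormad1*, an axis gene, differed by 2.69, from a median of 109.1 RPM in the other wells to 940.6 RPM in the members. *Rec8* was the one exception, at -0.42 and -0.82.

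All 8 measured genes for the formation of double-strand breaks were higher, with medians of 2.54 and 2.02. *Prdm9* (4.60) was followed by *Spo11* (2.90), the enzyme that cuts DNA in meiosis, *Ccdc36* (2.85), known as *Iho1*, and *Gm960* (2.80), known as *Top6bl*, the partner of SPO11. *Spo11* had reads in 39 of 51 members at a median of 89.9 RPM and in 73 of 411 other wells.

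Among 24 measured genes of meiotic recombination, 15 were higher and 2 lower, with a median of 1.29. Against the wells with *Ddx4* 11 were higher and 3 lower, with a median of 0.91. *Rad51ap2* and *Tex15* led, followed by *AI481877* (4.31), known as *Shoc1*, and *Spata22* (4.08), both of which act in crossover formation or repair of meiotic breaks. The recombinase gene *Dmc1* differed by 3.03, with medians of 736, 362 and 198 RPM in XGFPhigh, XGFPintermediate and XGFPlow members against 18.6, 23.9 and 3.89 RPM. The lower genes were *Fancb* (-1.81), an X-linked gene of DNA crosslink repair, and *Trip13* (-1.02), an ATPase gene that acts on HORMA proteins such as HORMAD1.

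Of 5 measured genes for the attachment and movement of telomeres, 3 were higher, with a median of 1.56, and 2 were higher against the wells with *Ddx4*, with a median of 1.00. *Spdya* (4.51), an activator of cyclin-dependent kinases at meiotic telomeres, and *Ccdc79* (4.02), known as *Terb1*, passed the fold in both comparisons, and *Ccdc155* (1.56), known as *Kash5*, in the first one.

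Genes of meiotic entry were mixed. Of 13 measured, 7 were higher and 1 lower, with a median of 1.01, and against the wells with *Ddx4* 5 were higher and 1 lower, with a median of 0.66. *Gm4969* (4.27), *Gm1564* (3.04), known as *Meioc*, *Ythdc2* (2.29), an RNA helicase gene that works with MEIOC, and *Setdb2* (1.89), a SET domain gene, were the largest. *Stra8* differed by 0.85 and 0.44, and *Dmrt1*, a regulator of germ cell mitosis and meiosis, was lower at -1.30 and -1.56. In the meiotic cell cycle list, 3 of 9 measured genes were higher and 1 lower, with a median of -0.31, and against the wells with *Ddx4* 2 were higher and 2 lower, with a median of -0.49. *Ccnb3* (5.58) and *Fbxo47* (4.48), an F-box gene needed for synapsis, were higher, and *Aurkc* (-2.46), a meiotic Aurora kinase gene, was lower, with a median of 0 RPM in members against 71.7 RPM.

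Of 9 measured genes of the piRNA pathway and transposon control, 5 were higher and 0 lower, with a median of 1.19, and 3 were higher against the wells with *Ddx4*, with a median of 0.85, a choice of wells that itself uses a gene of this list. *Mael* (2.18), *Ddx4* (1.75), *Gtsf1* (1.69) and *Mov10l1* (1.44) were the largest. In the oocyte programme 4 of 8 measured genes were higher and 1 lower, with a median of 1.44, and 5 were higher and 1 lower against the wells with *Ddx4*, with a median of 1.26. *Figla*, a transcription factor gene that acts on zona pellucida genes, differed by 3.22 and had reads in 43 of 51 members against 41 of 411 other wells. The zona pellucida genes *Zp1*, *Zp2* and *Zp3* were under the limit of 5 RPM. They had reads in 0 members and in 2, 4 and 81 other wells. *Ooep*, an oocyte cytoplasm gene, was lower (-2.53).

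**Figure D3:**
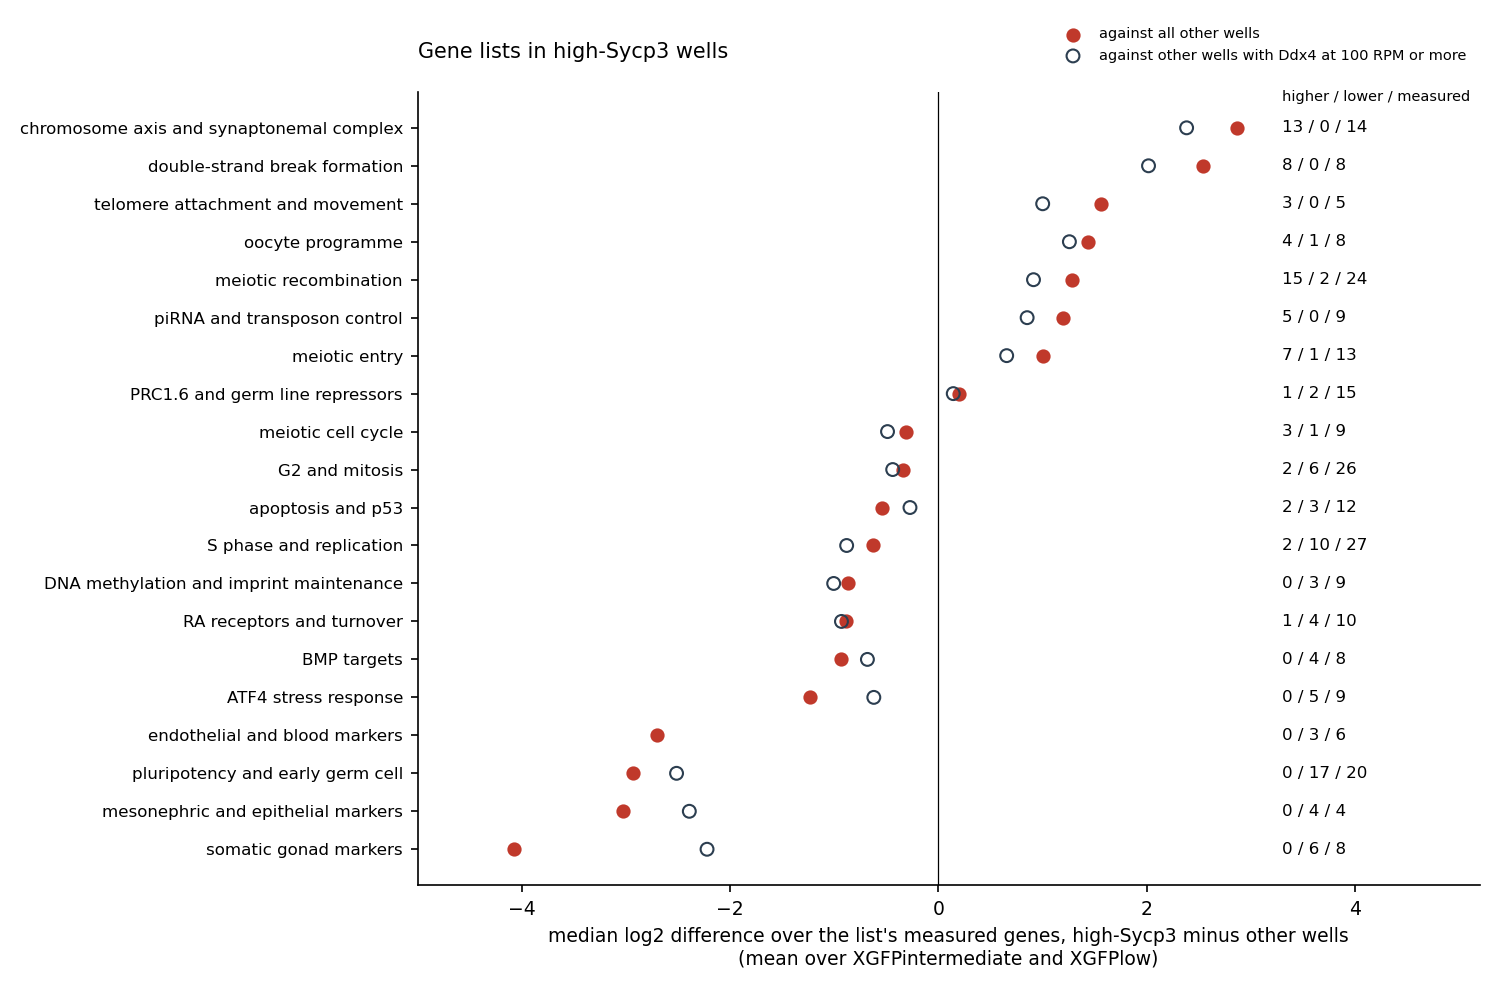
Median log2 difference of each gene list, high-*Sycp3* minus other wells (mean over XGFPintermediate and XGFPlow), against all other wells (filled) and against other wells with *Ddx4* at 100 RPM or more (open), with the numbers of higher, lower and measured genes of the first comparison at the right. The axis and break formation lists lie highest at 2.87 and 2.54, and the lists of pluripotency genes and of somatic, mesonephric and blood markers lowest.

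Genes of pluripotency and the early germ cell state were lower as a group. Of 20 measured, 0 were higher and 17 lower, with a median of -2.93, and against the wells with *Ddx4* 15 of 19 were lower, with a median of -2.51. *Tfap2c*, which the line also carries as a transgene, had reads in 2 of 51 members and 273 of 411 other wells. *Sox2* had reads in 3 and 324 wells, and *Dppa3* in 13 and 355 wells. *Tfcp2l1* (0.83), *Klf4* (0.44) and *Morc1* were not past the fold. *Morc1*, a silencing gene of the germ line, was at 28.3 RPM in XGFPintermediate members against 18.7 RPM in the other wells there, and at 0 against 22.7 RPM in XGFPlow, so the populations differed in direction.

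Among cell cycle lists, that of S phase held more lower genes. Of 27 S phase and replication genes, 2 were higher and 10 lower, with a median of -0.62, and 1 was higher and 13 lower against the wells with *Ddx4*, with a median of -0.88. *Tyms* (-1.88), *Cdt1* (-1.84) and *Cdc6* (-1.84), which serve nucleotide supply and the licensing of replication, were lower, while *Ccne2* (2.86), a cyclin gene, was higher and had a median of 448 RPM in members against 21.7 RPM. Of 26 genes of G2 and mitosis, 6 were lower and 2 higher in both comparisons, with medians of -0.34 and -0.44, which is near the share of lower genes among all genes. *Ccnb1* (-2.37), *Ube2c* (-2.20) and *Aurkb* (-2.15), which drive mitotic entry and exit, were lower. *Bub1*, a kinetochore kinase gene, was higher (1.86), at a median of 812 RPM against 187 RPM.

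The lists of signalling, DNA methylation, repressor and apoptosis genes had median differences from -0.93 to 0.20 against all other wells. Of 10 measured genes of retinoic acid response and turnover, 4 were lower and 1 higher in both comparisons, with medians of -0.89 and -0.93. *Cyp26a1*, which degrades retinoic acid, differed by -3.84 and had reads in 8 of 51 members and 163 of 411 other wells, *Stra6* (-2.04), a retinol uptake gene, was lower, and *Aldh1a2* (1.67), a retinoic acid synthesis gene, was higher but had reads in 15 of 51 members. Of 8 BMP targets 4 were lower, with *Id3* at -2.75, and 3 of 7 were lower against the wells with *Ddx4*. Of 9 genes of DNA methylation and imprint maintenance 3 were lower, and 4 of 7 against the wells with *Ddx4*, with *Tet2* read in 7 of 51 members and at a median of 7.79 RPM in the other wells. Of 15 genes of PRC1.6, a Polycomb complex that silences germ line genes, and other repressors, 2 were lower and 1 higher in both comparisons, with medians of 0.20 and 0.14. *E2f6*, a subunit that brings this complex to DNA, was lower (-1.62), and *Setdb1*, a histone methyltransferase gene, was higher (1.6). Of 12 measured genes of apoptosis and p53, *Cdkn1a* (-3.40) and *Trp53* (-1.98) were among 3 that were lower, and *Atr* (2.08), a checkpoint kinase gene that acts in meiotic prophase, was 1 of 2 that were higher, and 3 of 11 were lower and 2 higher against the wells with *Ddx4*.

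Marker lists of other cells were low in the members. They were examined because the germ cells were cultured with gonadal and mesonephric cells, although these had been depleted of SSEA1+ and CD31+ cells and lack the XTomato reporter on which the wells were sorted. Of the somatic gonad list 8 genes were measured, of which 6 were lower, and 6 had a sum of 0 reads in the members of a population. With these sums set at 3 reads, the median was -3.93 in place of -4.07. All 4 measured mesonephric and epithelial markers and 3 of 6 endothelial and blood markers were lower, with medians of -2.86 and -2.43 at that floor. Each of the 10 endothelial and blood genes in the data had a median of 0 RPM in both classes. Their sum had a median of 0 RPM in the other wells and reached 37899 RPM in the highest, so these differences rest on a minority of other wells. Against the wells with *Ddx4*, the 1 somatic gonad gene and all 3 mesonephric genes that were measured were lower, and no endothelial or blood gene reached the limit of 5 RPM. Of 9 ATF4 stress response genes, 5 were lower, and 3 of 7 were lower against the wells with *Ddx4*. Whether the share of somatic cells among the other wells accounts for any single decrease was not tested beyond this second comparison.

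The number of genes detected was lower in the members. At full depth they had 4405 to 8034 genes with a read, with a median of 6599 against 7881. Thinned to 10000 reads per well, the medians were 3309 and 3457, and the wells with *Ddx4* had 3563. Thinned to 100000 reads they were 5927 and 6890.

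Sequences before the transcription start are shown for 5 of the leading genes, as examples of the promoters in which motifs of factors known from meiotic entry were counted. The motifs were the E-box CACGTG, the STRA8 motif CNCCTCAG and the E2F motif GGCGGGAA, searched on both strands in RefSeq promoters of build GRCm38.p6 from 250 bases before to 50 after the start. The 150 bases before the start of each gene are given 5′ to 3′ on the strand of the gene, with motifs in capitals. *Sycp3* (chr10:88459437-88459586, plus strand) has E-boxes whose first bases are at -64 and -43, counted from the start, *Sycp1* (chr3:102936101-102936250, minus strand) an E-box at -94, *Prdm9* (chr17:15564355-15564504, minus strand) an E2F motif at -47 that overlaps a STRA8 motif at -41, *Rad51ap2* (chr12:11455905-11456054, plus strand) an E2F motif at -13, and *Taf7l* (chrX:134476491-134476640, minus strand) an E-box at -49. STRA8 motifs also begin at 33 in *Sycp1* and at 15 in *Prdm9*, after the start and outside the bases shown. All 5 genes shown hold a motif in these bases, so they do not stand for the leading genes as a whole. No motif was found in the promoters of *Ccnb3*, *BC051142*, *Rad21l*, *Sycp2*, *Tex16*, *Tchh* and *Tc2n*, or in another promoter of *Prdm9*. *Pparg* had a STRA8 motif at -34 in a promoter not shown and none in its other promoters.
Sycp3: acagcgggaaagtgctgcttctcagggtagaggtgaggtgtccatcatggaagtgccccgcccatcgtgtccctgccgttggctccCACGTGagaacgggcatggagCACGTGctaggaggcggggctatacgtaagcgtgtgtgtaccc
Sycp1: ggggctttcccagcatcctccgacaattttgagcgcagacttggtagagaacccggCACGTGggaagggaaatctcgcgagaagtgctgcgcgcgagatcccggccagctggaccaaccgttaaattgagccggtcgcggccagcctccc
Prdm9: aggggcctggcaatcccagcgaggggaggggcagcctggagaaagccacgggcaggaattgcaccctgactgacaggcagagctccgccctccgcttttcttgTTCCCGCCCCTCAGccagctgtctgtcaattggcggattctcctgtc
Rad51ap2: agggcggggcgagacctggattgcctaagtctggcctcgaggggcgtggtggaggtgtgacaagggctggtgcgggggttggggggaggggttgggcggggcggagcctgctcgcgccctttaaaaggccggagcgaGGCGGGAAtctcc
Taf7l: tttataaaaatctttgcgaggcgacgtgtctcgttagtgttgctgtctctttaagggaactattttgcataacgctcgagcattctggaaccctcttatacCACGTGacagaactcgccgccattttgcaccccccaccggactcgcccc

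Between higher and lower genes, the STRA8 motif differed most of the 3. It was present in 219 of the 1017 higher genes with a promoter (21.5%). The share was 11.5% of the 8104 measured genes and 8.75% of the 1668 lower genes with a promoter. It was 7.94% of all 32851 promoters, which are counted singly and not by gene, so that share is not on the same footing. The E-box was present in 12.3%, 12.2% and 11.4% of higher, measured and lower genes and in 7.15% of all promoters, and the E2F motif in 6.88%, 5.24%, 3.96% and 2.19%. A set of 46 higher genes from the meiotic lists, which leaves out some higher genes of these lists, was also counted. Of them 37 had a promoter, of which 29.7% held the STRA8 motif, 27.03% the E-box and 24.3% the E2F motif. These are counts of letters in a window and were not tested, and the base composition of the sets was not compared.

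The members differed among themselves along the level of *Sycp1*. Over the 51 wells the genes most like *Sycp1*, among those with a mean of at least 50 RPM, were *Taf7l* (Spearman's rho 0.79), *Rad51ap2* (0.78), *Ccnb3* (0.77), *Spo11* (0.75), *Sycp3* (0.75), *Hspb11* (0.74), *Ddx5* (0.74), an RNA helicase gene, and *Hspa5* (0.74), a chaperone gene of the endoplasmic reticulum. The wells differ in depth, lane and population, and within the 33 XGFPintermediate wells alone the values were 0.65 to 0.78. *Dmc1* had a rho of 0.64, and *Prdm9* (0.35) and *Gm4969* (0.23) were only loosely related to *Sycp1*. *Stra8* ran against it, with a rho of -0.63 over all members and -0.51 within XGFPintermediate, and so did *Rec8*, with -0.55 and -0.43. *Tubb5* (-0.84), a tubulin gene chosen after the values were seen, had the lowest rho. Against *Sycp1*, the number of genes detected had a rho of -0.52 and the number of reads a rho of -0.12.

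**Figure D4:**
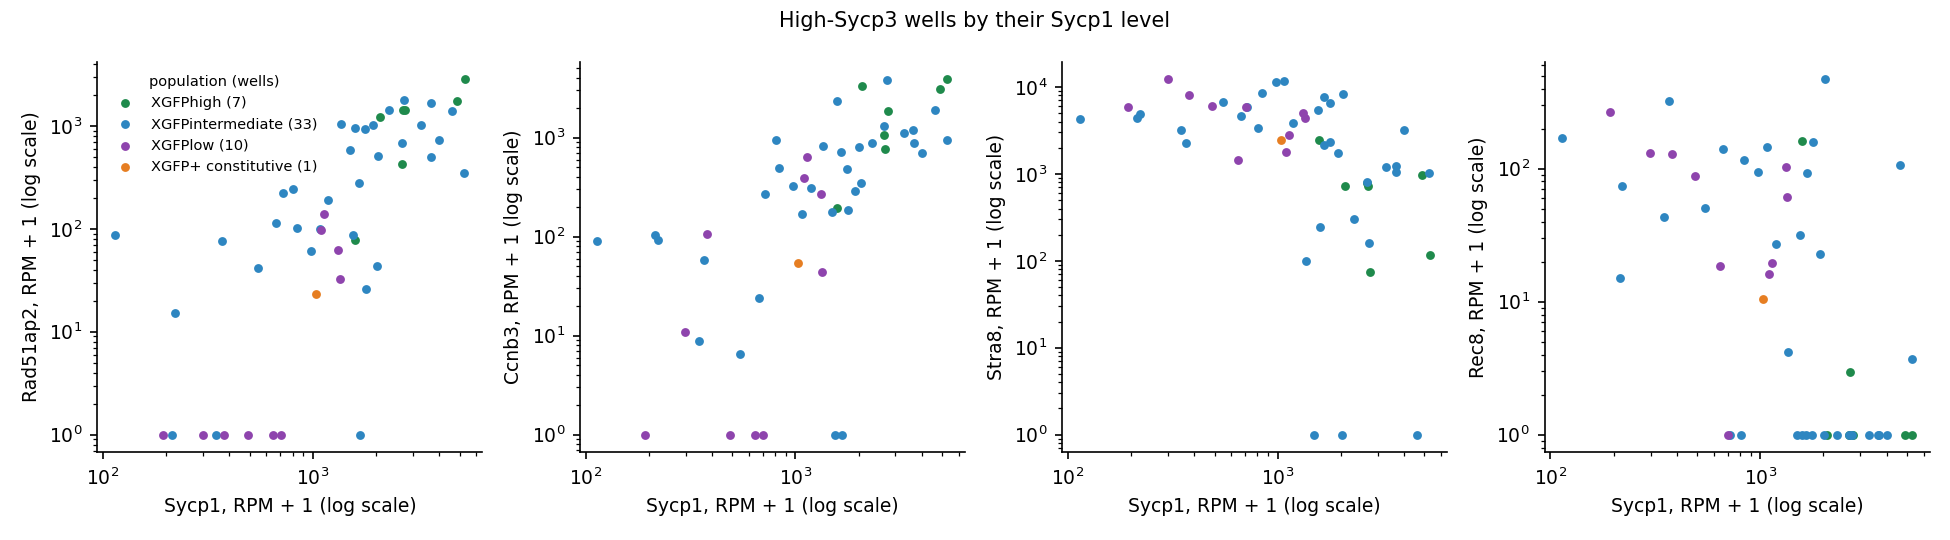
Levels of *Rad51ap2*, *Ccnb3*, *Stra8* and *Rec8* against *Sycp1* in the 51 high-*Sycp3* wells (RPM + 1, both axes on a log scale), coloured by sorted population. XGFPhigh wells (green) sit at high *Sycp1* with high *Rad51ap2* and *Ccnb3*, XGFPlow wells (purple) at lower *Sycp1* with high *Stra8*.

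By *Sycp3* level the same order appeared. In the 16 members between 400 and 800 RPM the medians were 839 RPM for *Sycp1*, 23.6 RPM for *Rad51ap2*, 96.4 RPM for *Ccnb3* and 5444 RPM for *Stra8*. In the 35 members at 800 RPM or above they were 1764, 429, 768 and 1436 RPM. The 13 other wells between 200 and 400 RPM had 120 RPM of *Sycp1*, 0 of *Rad51ap2* and *Ccnb3*, and 3253 RPM of *Stra8*. *Dppa3* was at a median of 165 RPM in those 13 wells and at 0 in both bands of members. *Sycp3* chose the bands, so genes that vary with it had to differ between them.

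The state of the X chromosome was read from the share of allele-specific reads that came from Xmus, averaged over the X-linked genes with a value in the well, so that 0.5 means equal use of both chromosomes. All 51 members had such ratios, over 62 to 157 genes per well, whereas 45 other wells had none, 33 of them in XGFPlow. Members' ratios lay closer together across populations than those of the other wells. In XGFPhigh the 7 members ranged from 0.301 to 0.451 with a median of 0.396, below the 0.474 of the other wells, and 0 of 7 lay above that median. In XGFPintermediate the 33 members ranged from 0.272 to 0.440 with a median of 0.356 against 0.330, and 23 of 33 lay above the median of the other wells. In XGFPlow the 10 members ranged from 0.278 to 0.368 with a median of 0.337 against 0.292, and 8 of 10 lay above. The single XGFP+ constitutive member was at 0.403, where the other wells had a median of 0.478.

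The difference of 0.0251 in XGFPintermediate was smaller than the spread among wells of either class (SD 0.0473 in members and 0.0681 in other wells). That of 0.0453 in XGFPlow exceeded the SD of the members (0.0331) but not that of the other wells (0.106), and that of -0.0779 in XGFPhigh exceeded both (0.0498 and 0.0573). Against the other wells with *Ddx4* the medians to compare were 0.458 in XGFPhigh (9 wells), 0.341 in XGFPintermediate (61 wells) and 0.310 in XGFPlow (45 wells), so the direction was kept and the differences were smaller. Ratios near 0 occurred in other wells, down to 0.0177 in XGFPlow, but not among the members, whose lowest value was 0.272. Nor did they occur in the other wells with *Ddx4*, where the lowest values were 0.252 in XGFPintermediate and 0.211 in XGFPlow. Their absence was thus not particular to the members. Undifferentiated embryonic stem cells of the line had a median of 0.441 over 23 wells.

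**Figure D5:**
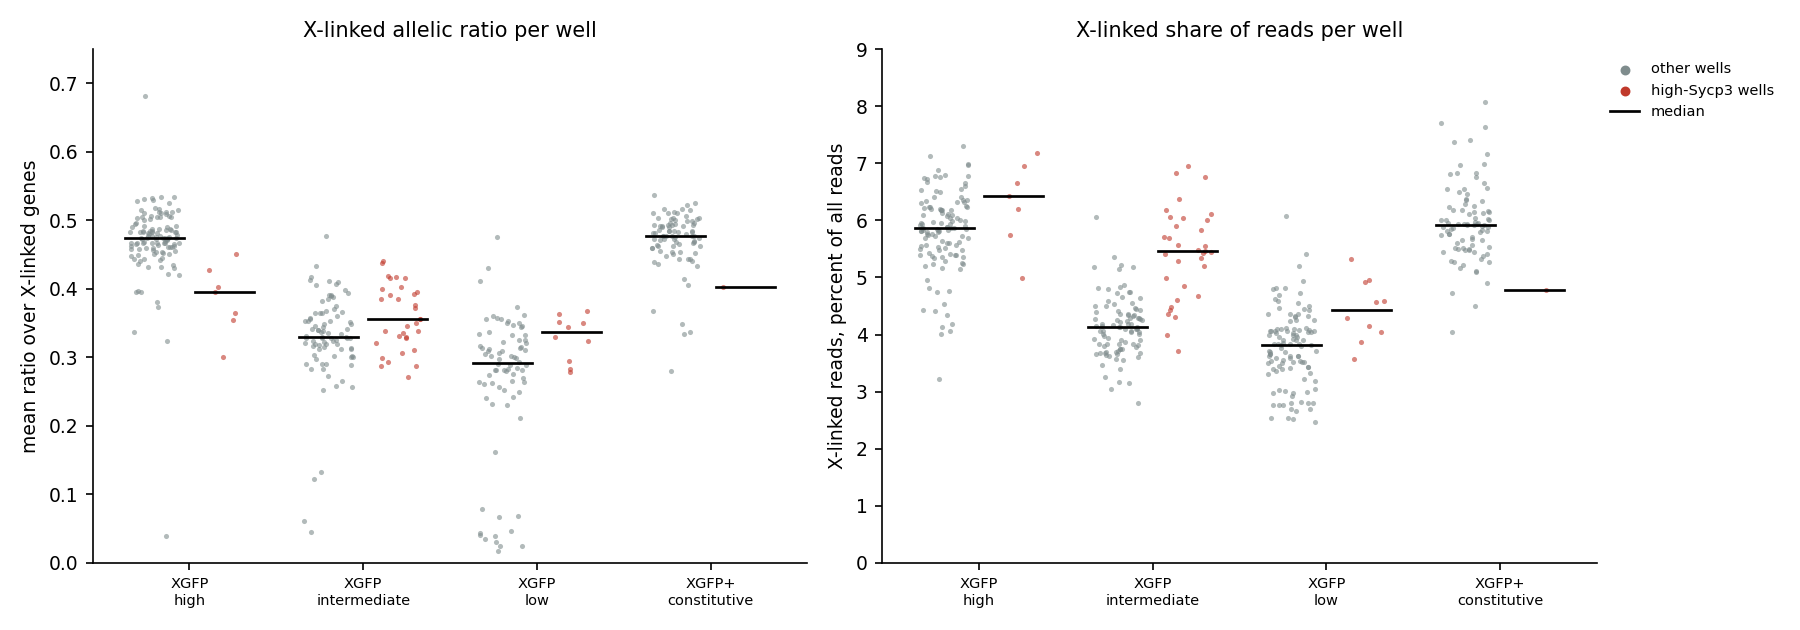
Left, mean Xmus share over X-linked genes in each well. Right, X-linked reads as a percentage of all reads of the well. Grey points are other wells, red points high-*Sycp3* wells and black lines medians. On the left the red medians run from 0.337 to 0.396 in the populations from XGFP- PGCLCs, where the grey medians run from 0.292 to 0.474.

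Gene by gene, 185 X-linked genes had ratios in at least 10 members and 10 other wells of XGFPintermediate and XGFPlow combined. The ratio was higher in the members for 76.2% of them, with medians over genes of 0.385 and 0.335. Above a ratio of 0.20 lay 148 genes in the members, 22 of them in the members only, while 2 lay above it in the other wells only and 35 in neither. At the lower ratio threshold taken from the methods, 162 genes passed in the members and 140 in the other wells. The classes hold the populations in different proportions, so XGFPintermediate was also taken alone: there 110 of 165 genes were higher in the members, medians were 0.401 and 0.372, and 17 genes lay above 0.20 in the members only, 5 in the other wells only and 24 in neither. In the other XGFPhigh wells the same 185 genes had a median of 0.483, and 153 of them had a lower ratio in the members than there.

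Among the genes with the largest increases of the ratio, *Prdx4*, a peroxiredoxin gene, had the most wells. Its ratio was 0.364 ± 0.180 (SD, 43 wells) in members and 0.149 ± 0.171 (161 wells) in other wells, and 0.414 against 0.204 within XGFPintermediate. *Rbmx2*, a splicing gene, had 0.435 ± 0.238 (42 wells) against 0.216 ± 0.291, *Rps6ka6*, a kinase gene, 0.364 ± 0.347 (36 wells) against 0.110 ± 0.252 (85 wells), and *Tsc22d3*, a glucocorticoid-induced gene, 0.305 ± 0.218 (35 wells) against 0.0846 ± 0.241 (47 wells). *Flna*, *Clcn5* and *Arxes2* had 13 to 16 member wells each and increases of 0.287 to 0.311. The increase exceeded the SD over wells of both classes for *Prdx4*, and not for *Rbmx2*, *Rps6ka6* or *Tsc22d3*. The 8 lowest differences, from -0.219 to -0.0794, were those of *Renbp*, *Yipf6*, *Gprasp2*, *Hdac6*, *Ofd1*, *Ribc1*, *Pls3* and *Pqbp1*. *Pls3*, an actin-bundling gene, had the lowest ratio of them in members, 0.0223 ± 0.0598 over 20 wells, against 0.106 ± 0.255 in the other wells.

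*Hprt*, whose Xmus copy carries the GFP reporter used for the sort, was higher in level in the members of the 3 populations from XGFP- PGCLCs. The members' medians were 616, 421 and 198 RPM in XGFPhigh, XGFPintermediate and XGFPlow, against 142.1, 67.96 and 54.7 RPM in the other wells. Its Xmus share was 0.376 ± 0.160 (7 wells) against 0.492 in XGFPhigh, 0.242 ± 0.201 (32 wells) against 0.211 in XGFPintermediate and 0.115 ± 0.176 (8 wells) against 0.0518 in XGFPlow, all within 1 SD of the members. *Tex11*, an X-linked gene of meiotic crossover formation that was added for its role, had an Xmus share of 0.202 ± 0.181 (32 wells) in XGFPintermediate members against 0.0112 ± 0.0376 (74 wells), and 0.0144 ± 0.0315 (9 wells) in XGFPlow members against 0.00100 ± 0.00437 (53 wells). In XGFPhigh it went the other way, with 0.174 ± 0.122 (7 wells) in members against 0.323 ± 0.327 (84 wells), and over all wells the means were 0.160 and 0.165. *Xist*, the RNA that coats the inactive X, had reads in 3 of 51 members and in 169 of 411 other wells. *Tsix* was not analysed here.

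X-linked genes also took a larger share of all reads in the members of the 3 populations from XGFP- PGCLCs. The medians were 6.43% against 5.86% in XGFPhigh, 5.46% against 4.13% in XGFPintermediate and 4.43% against 3.82% in XGFPlow, and the classes overlapped in each. The single XGFP+ constitutive member went the other way, at 4.78% against a median of 5.92%. The X-linked genes were not higher throughout. Of 406 X-linked genes measured, 95 (23.4%) were higher and 79 (19.5%) lower, with a median difference of 0.02, whereas of 9734 autosomal genes 11.6% were higher and 21.4% lower, with a median of -0.18. The 95 higher genes took a median of 2.29% of reads in members and 0.540% in other wells. The difference itself selected the genes past the fold, so the share left without them is given only as a value: without *Xist* and all genes past the fold it was 2.55% in members against 2.67% in XGFPintermediate, 2.72% against 2.45% in XGFPlow and 2.48% against 3.37% in XGFPhigh.

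Across the members, the X-linked share of reads went with *Sycp1* (rho 0.67 over 51 wells and 0.59 over the 33 of XGFPintermediate), while the Xmus share did so weakly, with rho 0.24 over all members and 0.02 within XGFPintermediate. Members with more *Sycp1* reads therefore held more X-linked reads, and within XGFPintermediate no relation with the allelic ratio was visible.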

How the data were processed

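Full-length cDNA libraries of single sorted cells were sequenced by the authors, and the deposited table holds raw read counts per gene and well, made by aligning reads to mm10 with STAR and counting them with HTSeq 0.6.1 per the submitters' processing notes. Allele-specific reads were assigned by the authors with SNPs of both strains, after the WASP filter of STAR, and the deposited X-linked table holds a fraction per gene and well, Xmus reads over Xmus plus Xcas reads, for 219 genes and for wells that passed their own filters on allelic reads. Its depth per value is not known here, so a ratio may rest on few reads, and no interval is given for it. The read length and library kit are described in more than one way in the sources and are not stated here. Both tables had 0 columns of no sample.

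Counts were scaled to 1000000 reads of the well (RPM) and, for classes, summed over wells. Genes were measured at a mean of at least 5 RPM over the 4 sums, with a pseudocount of 1. No cell was named by clustering and no doublet caller was run, because each well received 1 sorted cell. The members and the gene lists were chosen with earlier results of these data known. Named genes were the 12 largest differences in each direction with at least 50 RPM in the higher class, *Sycp3* left out, the markers, in each list the 4 largest differences and any exception, the 8 genes most like *Sycp1*, the 8 largest and 8 smallest differences in ratio, *Xist*, *Tsix* and *Hprt*, of which 1 gene of the ratio comparison is not reported here. Gene positions came from the GENCODE vM21 annotation of mm10, which held 15571 of the 15718 genes of the table (99.1%), and promoters those of RefSeq. Thinning drew reads without replacement to a fixed number per well. Intervals are exact Clopper-Pearson intervals at 95%. The gene comparison was also run on simulated wells with known changes. Apart from those changes the simulated wells shared a common mean profile, so the mix of cell types among the real wells was not imitated. Python 3.11.15, numpy 2.4.6, pandas 2.3.3, scipy 1.17.1 and matplotlib 3.10.9 were used. Alternatives were the pseudocount, the limit on low values, the *Sycp3* limit, lanes, the scaling, depth, the comparison wells and leaving out each population. XGFPhigh as an added population and XGFPintermediate alone for ratios per gene were chosen after seeing the data.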

Additional observations from a re-analysis of the deposited data

Results flagged for a closer look

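In 26 groups of 7 or 10 member wells, the highest and lowest well were set against the next one, and 4 values stood far apart from the rest of their group. Their gap to the next well was 0.555 to 0.714 of the range of the group. The same wells enter several groups, and how often such gaps arise by chance was not tested. *Stra8* reached 2424 RPM in 1 of the 7 XGFPhigh members, and the next one held 975 RPM. *Prdm9* reached 512 RPM in 1 of the 10 XGFPlow members (next, 228 RPM), and the same well had the highest *Hprt*, 986 RPM (next, 287 RPM). After thinning to 10000 reads, 1 XGFPlow member had 2588 genes with a read, where the next lowest had 3261. These are single wells, and no cause was tested.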

How the results depend on the processing

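No paired analysis was possible because wells carry only numbers given in order, and no result comes from a test. Against 1234 higher and 2179 lower genes, a pseudocount of 10 gave 799 and 1171, all of them among the first. The lower count was 3692 with no limit on low values and 1056 at a mean of at least 20 RPM, where the numbers of genes compared were 15718 and 6926. Leaving out XGFPintermediate or XGFPlow gave 1204 to 1864 higher and 2089 to 2594 lower genes. The members' share of XGFPintermediate was 17.97% in place of 25.8% with *Sycp3* at 800 RPM, and 0 in lane 2, of 16 wells. The X-linked share of reads in XGFPintermediate members over other wells was 1.32 and was 0.955 without *Xist* and genes past the fold, a choice of genes that the same difference had made. Genes detected stood at 0.957 of the other wells with wells thinned to 10000 reads and at 0.860 with 100000. The other 64 recomputed values kept their direction and stayed within the limits set for them. *Sycp3* at 800 RPM and lane 3 alone left XGFPintermediate as the only population in the gene comparison. *Xist* has no ratio in the allelic table, so keeping it could not be tried.

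Each population is 1 sample, so spread between wells is not spread between rOvaries, and how far the shares would vary among aggregations is unknown. XGFPhigh holds 7 members and XGFP+ constitutive 1, which limits what their values can show. Counting error of a gene follows its reads: a gene with no read in the 31629906 reads of the members is known only to lie below 0.0948 RPM, 3 reads of that total. This limit treats reads as independent and leaves out the spread between wells.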
